A study of Mus musculus with 2 samples.

Results

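The Smad family of mouse has 8 genes, Smad1, Smad2, Smad3, Smad4, Smad5, Smad6, Smad7 and Smad9, and all 8 were taken by name. Earlier results of these data were known when the members and the size of 1.5-fold used below were chosen. They were represented by 12 probes and made up 8 of the 14770 genes measured in both embryos. The samples were 1 Dullard-heterozygous and 1 Dullard-homozygous whole embryo of the C57BL/6 strain at embryonic day 7.5 (E7.5), during gastrulation. The homozygous mutant is written Dullard-/- in the study. Each was hybridized to its own 1-colour Agilent array, and the comparison asks how transcript levels differ where both copies of Dullard (Ctdnep1), which encodes a nuclear envelope phosphatase, are mutated. Both embryos carried at least 1 mutant allele, and no wild-type embryo was measured. The sources used here do not say which of the study's mutant alleles the arrayed homozygous embryo carried.

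Smad proteins carry signals of the TGF-beta superfamily from receptors at the cell surface to the nucleus. Smad1, Smad5 and Smad9 are the substrates of bone morphogenetic protein (BMP) receptors, Smad2 and Smad3 those of activin, nodal and TGF-beta receptors, and Smad4 is the partner that both branches share. Smad6 and Smad7 are inhibitory members that block receptors or receptor-regulated Smads, and their genes are themselves targets of the pathway, which makes them part of its negative feedback. In the gastrulating embryo nodal and BMP signals pattern the primitive streak, the mesoderm and the germ line.

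The start-site windows of 4 members are printed to show where sites for Smad proteins stand in the gene of Smad6 beside 3 receptor-regulated members. They are from RefSeq (GRCm38.p6), run 5′ to 3′ along the gene's strand, and cover 250 bases before to 50 after the annotated start. Capitals mark GTCT and its reverse complement AGAC, the half-site that Smad3 and Smad4 are known to bind. The Smad6 window is chr9:64022010-64022309 on the minus strand, the Smad3 window chr9:63757945-63758244 on the minus strand, the Smad1 window chr8:79399379-79399678 on the minus strand and the Smad9 window chr3:54755332-54755631 on the plus strand.
Smad6: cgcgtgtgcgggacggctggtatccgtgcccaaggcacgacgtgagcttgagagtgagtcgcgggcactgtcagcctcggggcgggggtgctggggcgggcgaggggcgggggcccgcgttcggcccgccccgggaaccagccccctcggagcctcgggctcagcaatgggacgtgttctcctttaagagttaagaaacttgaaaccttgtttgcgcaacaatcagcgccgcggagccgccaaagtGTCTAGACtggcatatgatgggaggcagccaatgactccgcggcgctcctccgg
Smad3: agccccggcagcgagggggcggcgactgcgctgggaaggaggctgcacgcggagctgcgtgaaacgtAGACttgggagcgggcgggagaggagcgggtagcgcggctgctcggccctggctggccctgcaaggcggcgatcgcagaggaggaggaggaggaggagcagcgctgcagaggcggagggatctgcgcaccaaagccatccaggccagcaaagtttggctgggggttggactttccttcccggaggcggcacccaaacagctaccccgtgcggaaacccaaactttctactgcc
Smad1: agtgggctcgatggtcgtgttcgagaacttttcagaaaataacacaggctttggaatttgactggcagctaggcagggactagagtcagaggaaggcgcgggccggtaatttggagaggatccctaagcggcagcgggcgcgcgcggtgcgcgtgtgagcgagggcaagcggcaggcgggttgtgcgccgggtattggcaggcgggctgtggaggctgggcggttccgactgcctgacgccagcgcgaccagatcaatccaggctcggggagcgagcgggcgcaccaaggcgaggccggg
Smad9: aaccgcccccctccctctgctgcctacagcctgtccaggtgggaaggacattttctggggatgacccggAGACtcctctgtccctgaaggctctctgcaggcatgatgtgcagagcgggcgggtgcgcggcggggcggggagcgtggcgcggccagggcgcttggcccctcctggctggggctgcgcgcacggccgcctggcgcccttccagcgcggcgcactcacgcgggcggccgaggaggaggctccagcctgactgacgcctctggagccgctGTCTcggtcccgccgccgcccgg
The 2 half-sites of the Smad6 window abut and form the palindrome GTCTAGAC, which starts 4 bases before the start site and lies at chr9:64022056-64022063. The Smad1 window holds 0 half-sites, the Smad3 window 1 and the Smad9 window 2, none of them in a palindrome. Of 3 windows listed for Smad5, on chromosome 13, 2 hold 1 half-site each and the other holds 2. Over all 32851 windows of this length, searched on both strands, 0.213% hold the palindrome and 88.0% at least 1 half-site, with a median of 2. The GC-rich sequence GGCGCC, bound by BMP-regulated Smads, stands in 11.9% of all windows, in the Smad9 window and in 2 of the Smad5 windows. The motifs were chosen after the windows had been seen, and a match is a description of letters. Smad2, Smad4 and Smad7 have no window printed here.

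Signals were the background-subtracted intensities of the scanner software, taken relative to the 75th percentile of each array, which was 286 in the heterozygous embryo and 264 in the homozygous one. This scaling raised every log2 fold change by 0.11, and without it the median over all genes was -0.10. Of 43020 non-control spots, the heterozygous embryo gave 31242 well above background and the homozygous embryo 29310, and none was saturated. The arrays shared 1 slide and 1 scan. All 5 epiblast and all 7 visceral endoderm markers listed were measured in both embryos, and of 5 markers of the maternal decidua Des and Cryab were measured in both, at log2 fold changes of 0.25 and 0.05, Prl3c1 passed on different probes in each, and Prl8a2 and Dcn were well above background in neither. The 1 probe of Dullard gave a signal of 672 in the heterozygous and 144 in the homozygous embryo, 4.31-fold lower after scaling. The signal of 144 was 19.8 times the lowest that passed the background filter in the homozygous embryo. One of the study's alleles removes all exons, so that any probe lies in the deleted part, whereas the LacZ allele leaves the later exons, and where the probe lies was not analysed here. With 1 embryo of each genotype there was no test and no check by a replicate, and every difference describes these 2 embryos. Errors below are of 2 kinds. The spot SE comes from the SD between replicate spots of the 40 replicated probes nearest in brightness, and the scanner SE from the error that the scanner software gives with each signal. Neither includes the variation between embryos. Disagreement between probes of a gene, with a pooled SD of 0.29 over 3747 genes, is not included either. Smad2, Smad6, Smad7 and Smad9 had 1 probe each, so it could not be seen for them.

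Both inhibitory Smads were higher in the homozygous embryo, Smad7 by 1.96-fold and Smad6 by 1.79-fold, and no other member of the family reached 1.5-fold in either direction. The 3 Smads of the BMP branch were between 1.11 and 1.38-fold higher, Smad4 was 1.16-fold higher, Smad2 was near equal in both embryos, and the value of Smad3 depended on the probe. Thus 2 of 8 members were at least 1.5-fold higher, where 3.92% of all measured genes were, and 0 were at least 1.5-fold lower, where 3.37% were. At 2-fold in either direction there were 0 members, against 1.66% of all genes. The median log2 fold change was 0.26 over the 8 Smads and 0.01 over all genes. All 12 Smad probes were well above background on both arrays, so no member was lost to the filter on dim probes. After scaling 11 of the 12 probes were above 0 in log2 fold change and 1 below, while the signals before scaling were brighter in the homozygous embryo for 9 probes and dimmer for 3. Of all 14770 measured genes 7678 were above 0 after scaling. The Smad2 probe at 0.02 and the brighter Smad3 probe at 0.01 count as above 0 but lay within their spot SDs of 0.05 and 0.06.

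**Figure D1:**
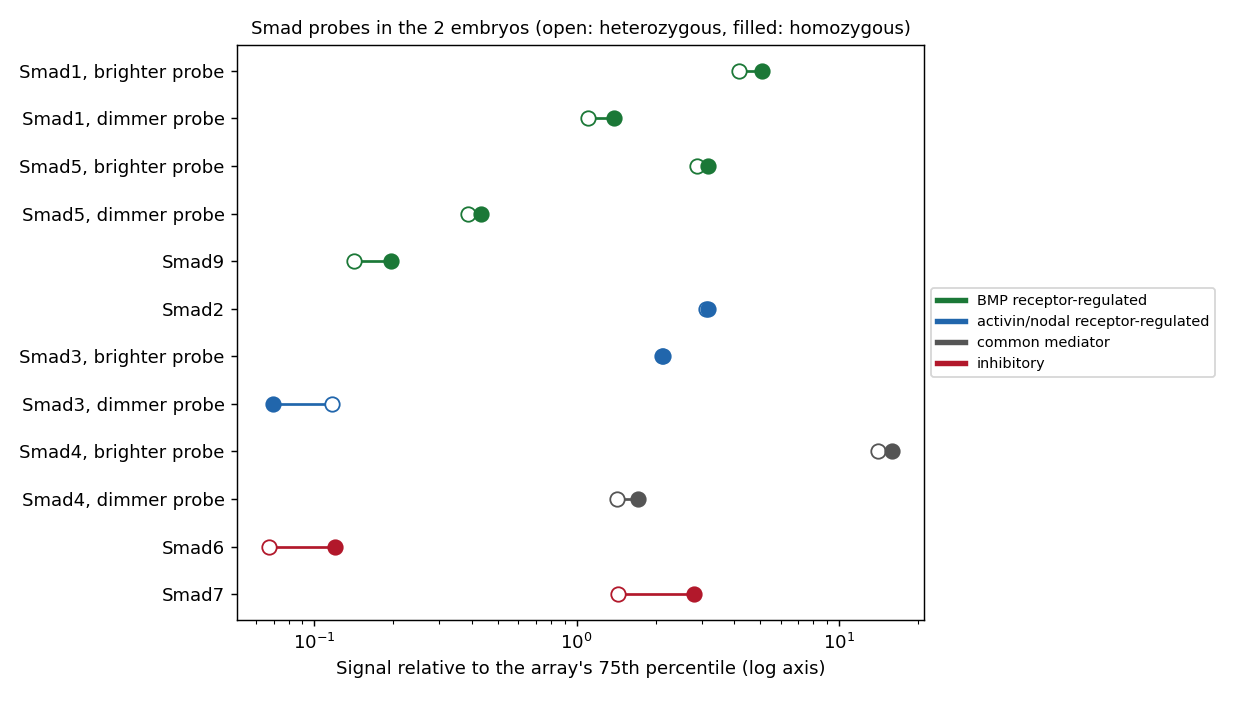
Signal of each of the 12 Smad probes as a multiple of its array's 75th percentile, on a log axis, in the heterozygous (open) and the homozygous embryo (filled); colours give the role and each point is 1 array. The wide gaps to the right are those of Smad6 and Smad7, the dimmer Smad3 probe runs the other way, and the points of Smad2 and of the brighter Smad3 probe nearly coincide; distances between probes are not levels of one gene against another.

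Smad7 binds activated receptors of both branches and recruits ubiquitin ligases to them. Its 1 probe gave a signal of 410.4 in the heterozygous embryo and 743 in the homozygous embryo, that is 1.44 and 2.81 times the 75th percentile of the respective array. The log2 fold change was 0.97 (spot SE 0.05, scanner SE 0.20), so the gap between the embryos was many times the error of a spot. Smad7 lay in the brightest of 4 bins of genes of like signal, in which log2 fold changes had an SD of 0.17 and 0.704% of genes were at least 1.5-fold higher. Of the genes in that bin 0.135% were as high as Smad7 or higher, and of all measured genes 0.982%. The signal was 66.2 times the lowest one well above background on the heterozygous array and 102 times on the homozygous array, so this value did not rest on a dim spot.

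Smad6, which acts chiefly on the BMP branch, was also read by 1 probe. Its signal was 19.1 in the heterozygous and 31.7 in the homozygous embryo. The log2 fold change was 0.84 (spot SE 0.20, scanner SE 0.24). These signals were only 3.09 and 4.37 times the lowest ones well above background on their arrays, and Smad6 lay in the dimmest bin. There the SD of the log2 fold change was 0.47, 8.31% of genes were at least 1.5-fold higher and 3.63% were as high as Smad6 or higher. The Smad6 value therefore stood less far from genes of like brightness than the Smad7 value did. The difference between them, 0.13 in log2 fold change for Smad7 over Smad6, was smaller than its spot SE of 0.21, so these arrays did not separate their size. With a normexp background correction, which adds an offset to every signal, Smad6 dropped to 0.41 and was no longer past 1.5-fold, whereas Smad7 stood at 0.87.

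The palindrome of the Smad6 window was also found in windows of 37 measured genes, Smad6 among them. Of these 2, Smad6 itself included, were past 1.5-fold upward and 2 downward, and the median log2 fold change of the 37 was -0.01. Over the 11749 measured genes with any window the median was 0.01 and 3.80% were at least 1.5-fold higher.

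**Figure D2:**
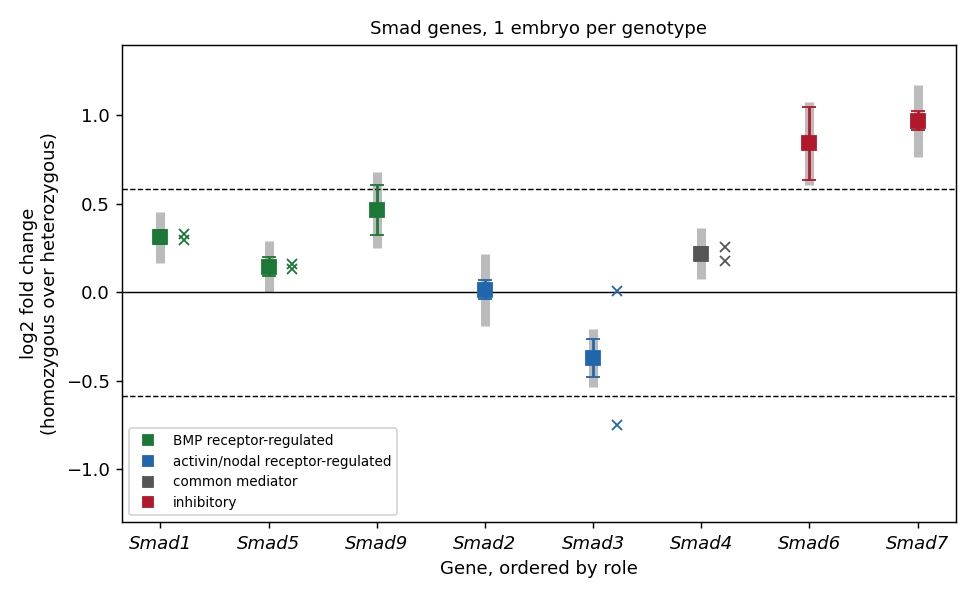
log2 fold change (homozygous over heterozygous) of each Smad gene, ordered by role, 1 embryo per genotype: squares are the mean over probes, capped bars the spot SE, grey bars the scanner SE and crosses the single probes of genes with 2 probes. Dashed lines mark 1.5-fold; Smad6 and Smad7 lie above the upper line at 0.84 and 0.97, and the crosses of Smad3 lie far apart at 0.01 and -0.75.

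Among the BMP-regulated Smads, Smad1 was measured by a pair of probes. The brighter one gave a signal of 1186 in the heterozygous and 1346 in the homozygous embryo, and the dimmer one 316 and 367. Their log2 fold changes were 0.30 and 0.33, and the gene value was 0.31 (spot SE 0.04, scanner SE 0.14). Both probes were thus brighter in the homozygous embryo and gave nearly the same size. Within the brightest bin 4.50% were as high as Smad1 or higher.

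Smad5, which overlaps with Smad1 in transducing BMP signals in the early embryo, had the smallest difference of this branch. Its brighter probe read 825 in the heterozygous and 837 in the homozygous embryo, and its dimmer probe 110.3 and 114. The log2 fold changes were 0.13 and 0.16, with a gene value of 0.15 (spot SE 0.05, scanner SE 0.15). Before scaling the signals of Smad5 were almost equal, with a log2 fold change of 0.03, and 26.4% of all genes were as high or higher after scaling. Smad1 exceeded Smad5 by 0.17 in log2 fold change (spot SE 0.07, scanner SE 0.20), more than the spot error but less than the scanner error.

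Smad9, known also as Smad8, had the largest log2 fold change of the BMP-regulated members. Its probe read 40.6 in the heterozygous and 51.8 in the homozygous embryo, a log2 fold change of 0.47 (spot SE 0.14, scanner SE 0.21). In its brightness bin 7.83% of genes were as high or higher. It exceeded Smad1 by 0.15, about as much as the spot SE of that difference (0.15), so an order of Smad9 and Smad1 could not be given.

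Smad2, the main transducer of nodal in the epiblast, differed least in the family. Its probe gave 894 in the heterozygous and 835 in the homozygous embryo, which after scaling was a log2 fold change of 0.02 (spot SE 0.05, scanner SE 0.20). Its sign was not settled: it was -0.10 without scaling and 0.05 with scaling to the median. At this precision a difference for Smad2 was not detectable.

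Smad3 shares the receptors of Smad2 and can bind DNA directly. Its brighter probe read 605 in the heterozygous and 562 in the homozygous embryo, a log2 fold change of 0.01 (spot SD 0.06). Its dimmer probe read 33.5 and 18.4, a log2 fold change of -0.75 (spot SD 0.20, scanner error 0.25). The probes of Smad3 therefore disagreed by 0.76, and 6.86% of the 3136 genes with 2 probes disagreed by as much. In the homozygous embryo the dimmer probe was only 2.53 times the lowest signal that passed the background filter. The mean of both, -0.37 (spot SE 0.11), described neither probe, and no direction was given to Smad3. Where the probes lie in the transcript was not analysed here.

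Smad4, the shared partner without which neither branch forms its usual nuclear complex, was bright on both probes. One read 4045 in the heterozygous and 4231 in the homozygous embryo, and the other 409 and 452. The log2 fold changes were 0.18 and 0.26, with a gene value of 0.22 (spot SE 0.04, scanner SE 0.14). Both probes pointed upward, before scaling too, where the gene value was 0.11. Smad4 exceeded Smad5 by 0.07 (spot SE 0.06) and was exceeded by Smad1 by 0.09 (spot SE 0.05), so these neighbours differed by little more than the error of the spots and by less than their scanner SE of 0.20.

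**Figure D3:**
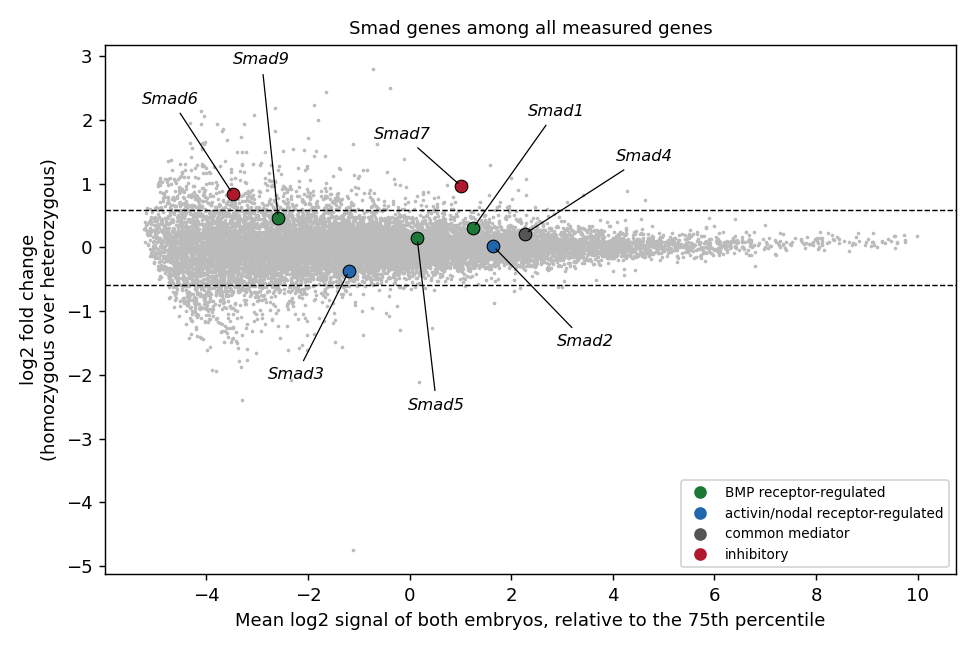
log2 fold change (homozygous over heterozygous) of all 14770 measured genes (grey) against their mean log2 signal in both embryos relative to the 75th percentile, with the Smads coloured by role and 1.5-fold as dashed lines. Smad7 stands clear of the grey band at its brightness, where the SD was 0.17, whereas Smad6 lies at the dim end, where the SD was 0.47.

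Differences between members on the same arrays do not depend on the scaling and were compared by role. The inhibitory pair had a mean log2 fold change of 0.91 (spot SE 0.11) and the 6 transducing Smads one of 0.13 (spot SE 0.03). The inhibitory pair was thus 0.77 above the transducers (spot SE 0.11, scanner SE 0.17), and 0.51 above them with normexp. Against the BMP-regulated Smads, with a mean of 0.31, the gap was 0.60 (spot SE 0.12, scanner SE 0.18), and against Smad4 it was 0.69 (spot SE 0.11). Singly, Smad7 exceeded Smad1 by 0.66 (spot SE 0.07) and Smad6 exceeded Smad1 by 0.53 (spot SE 0.21). With normexp the gap of Smad6 to the mean of the BMP-regulated Smads fell from 0.53 to 0.21, whereas that of Smad7 was 0.66 and 0.67. Smad6 exceeded Smad9 by 0.38 (spot SE 0.25, scanner SE 0.32), a gap not far beyond its error. The BMP-regulated Smads lay 0.49 above Smad2 and Smad3 (spot SE 0.08), but 0.29 with the brightest probe of each gene and 0.24 with normexp. By value the members lay in the order Smad7, Smad6, Smad9, Smad1, Smad4, Smad5 and Smad2, with Smad3 level with Smad2 on its brighter probe and last on the mean of both. Of these neighbours Smad7 and Smad6, Smad9 and Smad1, Smad1 and Smad4, and Smad4 and Smad5 did not differ beyond their scanner SE, nor did Smad5 and Smad2, at 0.13 apart (scanner SE 0.25). Smad7 exceeded Smad1, Smad4 and Smad2 by 0.66, 0.75 and 0.95, whereas the errors of Smad6 and Smad9 overlapped on the scanner SE.

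In whole embryos fewer cells of a type and less RNA per cell cannot be told apart, and markers of several cell types differed between the embryos. Of all 14770 measured genes 3.92% were at least 1.5-fold higher, 3.37% at least 1.5-fold lower, and 7678 genes were above 0. In the dimmest bin 8.31% were at least 1.5-fold higher and 9.29% lower. Of 8 endothelial markers 7 were measured, with a median log2 fold change of 0.34 and a summed signal of 2.93 in the heterozygous and 4.47 in the homozygous embryo, in units of the 75th percentile. Kdr, from probes at 0.20 and 1.09, Cdh5 and Etv2 were at least 1.5-fold higher, Tek was at least 1.5-fold lower, and Tie1 was well above background in neither. Flt1 was at 0.34, Pecam1 at -0.38 and Emcn at -0.25, so 4 markers were above 0 and 3 below. Cdh5 read 10.4 in the heterozygous and 20.7 in the homozygous embryo, and Tek 19.9 and 9.67. The lowest signals well above background there were 6.20 and 7.27, so both markers were dim. All 8 markers of the anterior visceral endoderm and anterior streak were above 0, 6 of them past 1.5-fold, and their sum was 35.2 in the heterozygous and 59.3 in the homozygous embryo. The brightest of them were Cer1, with signals of 5493 and 8522.5 in that order, and Otx2, with 2277 and 3721. Every sum in this paragraph adds signals of different probes, so the brightest probes weigh most in it. Of 8 markers of the streak and nascent mesoderm 5 were at least 1.5-fold higher and 2, T and Msgn1, at least 1.5-fold lower, with sums of 6.37 and 10.2. Of 6 primitive blood markers Hbb-bh1 and Gata1 were measured in both embryos and both were at least 1.5-fold lower, with a sum of 1.79 in the heterozygous and 0.656 in the homozygous embryo. Of 5 adult blood markers, Hba-a1 (-0.95) and Alas2 (-0.61) were also at least 1.5-fold lower and Slc4a1 was at 0.13, while Hbb-bt and Hbb-bs passed the background filter in the heterozygous embryo alone and were lower by at least 7.19 and 2.93-fold. Among 6 trophoblast markers measured, Prl3d1 was at 1.07 and Ascl2 at -0.74, with a list median of -0.09. Gsc, Lefty1, Cer1, Foxa2, Mixl1 and Eomes are in these lists and in the pathway lists below. Visceral endoderm markers had a median near 0 (7 of 7 measured, 0 past 1.5-fold). The 5 epiblast markers had a median of 0.07, with 3 above 0 and 2 below. Fgf5, at 0.89, was the 1 past 1.5-fold. Of 6 cardiac mesoderm markers 4 were measured, with a median of 0.18, 2 above 0 and 2 below. Gata4, at 0.64, was the 1 past 1.5-fold. The part of these differences in the values of Smad6, Smad7 and the other Smads was not tested.

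Other genes of the pathway were described in 11 lists with 107 genes, chosen with earlier results of these data known. Of these 98 were measured in both embryos, 11 (11.2%) were at least 1.5-fold higher and 0 lower, against 3.92% and 3.37% of all genes. Without scaling 9 were higher and 4 lower, the lower ones being Tgfb3, Fst, Wwp1 and Id3. The median over the lists was 0.06 after scaling and -0.05 without it, so its sign turned with the scaling.

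Of 15 ligands measured, Nodal was the 1 past 1.5-fold, with a signal of 165 in the heterozygous and 306 in the homozygous embryo and a log2 fold change of 0.999 (spot SE 0.07). The next in size were Tgfb3 at -0.52, Tgfb1 at 0.46 and Bmp4 at -0.32, the BMP ligand of the extraembryonic ectoderm. The probes of Bmp4 were apart, at -0.55 and -0.08. Tgfb1 was dim, with signals of 7.36 in the heterozygous and 9.56 in the homozygous embryo (spot SE 0.30, scanner SE 0.45). The median over the ligands was -0.04. Of 10 secreted antagonists 3 were at least 1.5-fold higher: Lefty1, a feedback inhibitor of nodal, by 2.19 in log2 (signals of 21.4 and 90.2), Cer1, which binds nodal and BMPs, by 0.75, and Bmper, a BMP-binding protein, by 0.67. Fst, which binds activin, stood at -0.48.

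Of 6 type I receptors, the kinases that phosphorylate the Smads, 0 were past 1.5-fold. Acvr1, a BMP receptor, was at 0.46 and Acvr1b, a nodal receptor, at -0.30, Acvrl1 was at 0.21, and Bmpr1b was at 0.30 from a pair of probes at -0.21 and 0.81. Among 5 type II receptors Tgfbr2 was at 0.93, from probes at 0.38 and 1.48, Bmpr2 was at 0.31, Acvr2a at -0.22 and Acvr2b at 0.19. Tgfbr2 was dim, with mean signals of 14.2 in the heterozygous and 22.1 in the homozygous embryo (spot SE 0.18). Tdgf1, the co-receptor of nodal, was at 0.87 (spot SE 0.04), with its 3 probes between 0.75 and 1.02, while Tgfbr3 was at 0.49, Rgma at -0.29 and Rgmb at -0.07.

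Genes that handle Smad proteins inside the cell stayed within 1.5-fold. None of 10 genes for anchors and nuclear transport was past it, with Zfyve9 (SARA), which presents Smad2 and Smad3 to receptors, at -0.29, Zfyve16 at -0.27, Xpo4 at -0.26 and Lemd3, which holds receptor-regulated Smads at the nuclear envelope, at 0.24. None of 13 ubiquitin ligases and deubiquitinases was past it either. The largest were Wwp1 at -0.49, from probes at -0.86 and -0.13, Nedd4l at 0.40, Itch at 0.34 and Usp11 at 0.33. Nedd4l was dim, with signals of 11.8 in the heterozygous and 14.4 in the homozygous embryo (spot SE 0.30). Smurf1 and Smurf2, the ligases that Smad7 brings to receptors, were at -0.05 and 0.14, and were named after their values were seen. Of 6 phosphatases Pdp1, which acts on Smad1, was at 0.50 from probes between 0.13 and 0.84, Mtmr4 was at -0.39, Ctdsp2 at 0.10 and Ctdspl at -0.09.

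Among 9 nuclear partners and coactivators, Mixl1 was higher by 1.39 in log2 (spot SE 0.07) and Eomes by 0.76 (spot SE 0.04), both transcription factors of the streak. Yy1 followed at 0.48 and Zfp423, a BMP-specific partner, at 0.34. Of 9 corepressors Skil (SnoN), which represses Smad2 and Smad3 targets and is itself induced by them, was at 0.78 (spot SE 0.07), with its probes at 0.74 and 0.81. Its relative Ski was at -0.28, Tob1 at 0.44 and Zeb1 at 0.41.

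Of 16 direct feedback and response genes 13 were measured in both embryos, with a median of 0.29. Gsc, a target of nodal, gave a signal of 65.8 in the heterozygous and 426 in the homozygous embryo, a log2 fold change of 2.81 (spot SE 0.08). Foxa2 was at 0.63, and Lefty1 and Skil belong to this list as well as to the lists above. Pmepa1, a feedback inhibitor of the Smad2 and Smad3 branch, was well above background in the homozygous embryo only and was at least 3.70-fold higher there. Lefty2, another nodal target, was at 0.19, and Msx1 and Msx2, targets of BMP signals, at -0.05 and 0.29. These 3 genes and the Id genes, also targets of BMP-regulated Smads, were named after their values were seen. Id1 was at 0.05, Id2 at -0.27 and Id3 at -0.52, and Id4, seen well above background in the heterozygous embryo alone, was lower by at least 3.23-fold in the other. Bambi, a pseudoreceptor and BMP target, was well above background in neither embryo.

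**Figure D4:**
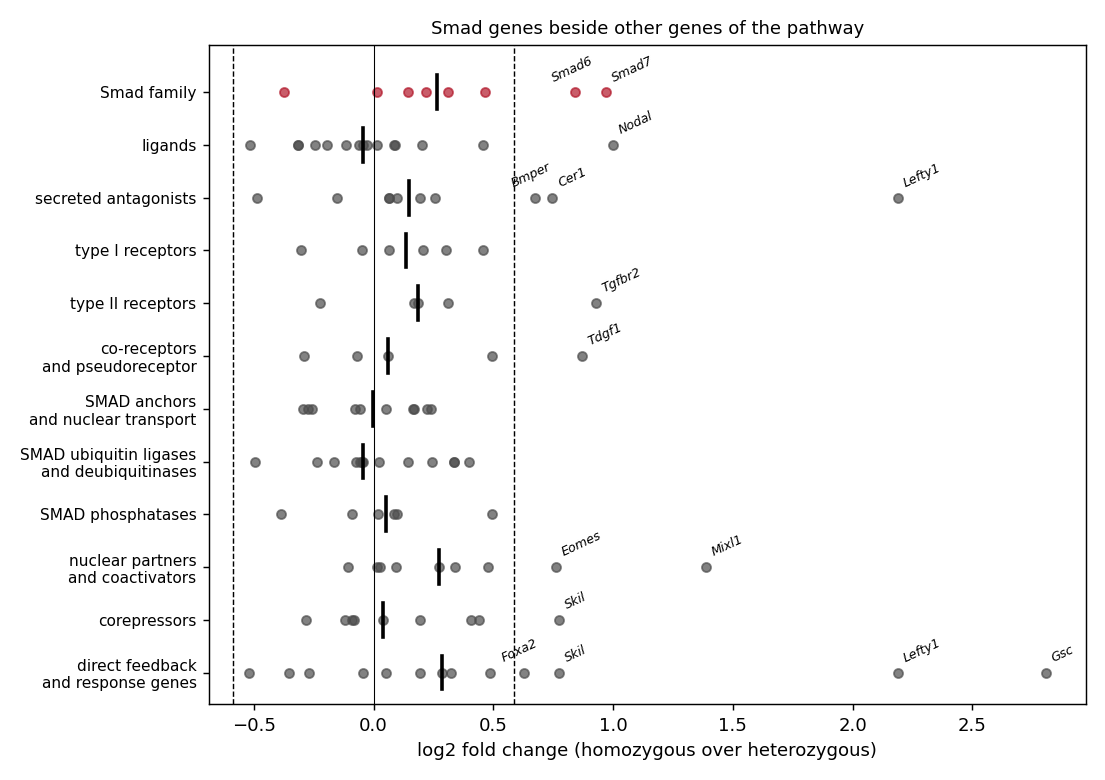
log2 fold change (homozygous over heterozygous) of the 8 Smads (red) and of the genes in 11 pathway lists measured in both embryos (grey; a gene may be in more than 1 list), with the median of each list as a black bar, 1.5-fold as dashed lines and the genes past it named. Gsc and Lefty1 lie farthest to the right at 2.81 and 2.19, Smad6 and Smad7 lie past the line at 0.84 and 0.97, and after scaling no gene lies past the lower line.

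The values of the Smads were set against 9 other ways of processing. Smad7 stayed past 1.5-fold under all 9, between 0.86 and 1.01, and Smad6 under 8 of them, between 0.73 and 0.91, the exception being normexp. Smad1, Smad4, Smad5 and Smad9 stayed above 0 and under 1.5-fold throughout. Smad2 ranged from -0.10 to 0.05. Smad3 ran from -0.48 to -0.05 where both probes were used, and was at 0.01 with its brighter probe alone.

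**Figure D5:**
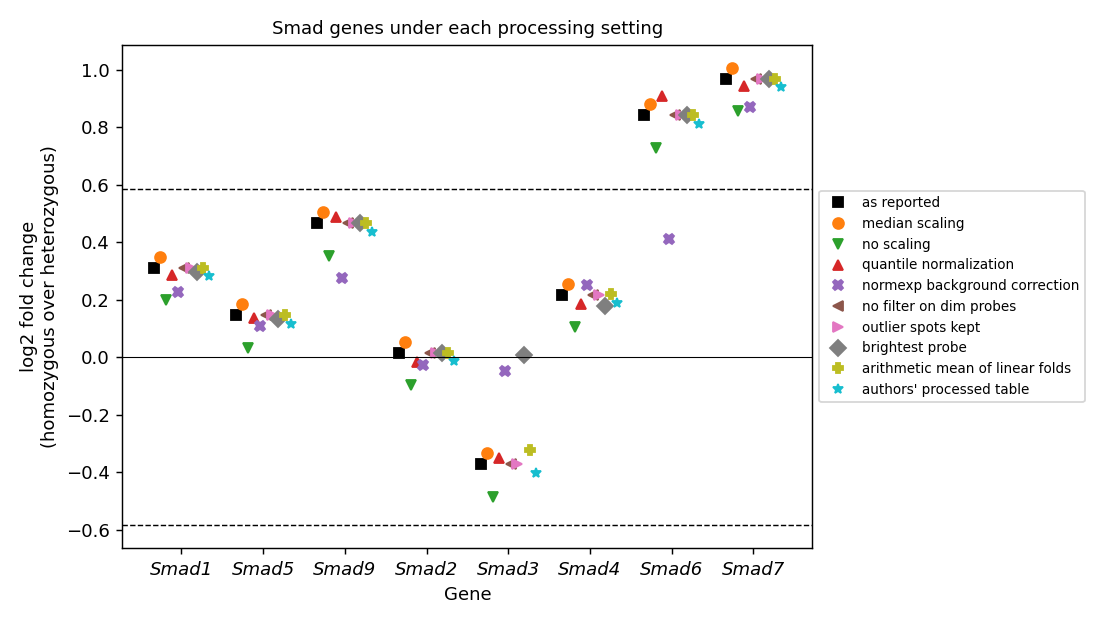
log2 fold change (homozygous over heterozygous) of each Smad gene as reported (black squares) and under 9 other processing settings (coloured symbols), with 1.5-fold as dashed lines. Smad7 stays above the upper line under every setting, Smad6 drops below it at 0.41 with normexp, and Smad3 is near 0 with normexp and with its brighter probe alone.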

How the data were processed

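RNA of 1 heterozygous and 1 homozygous E7.5 embryo was labelled with Cy3 and hybridized to 1 Agilent whole mouse genome array each. The labels give 0.1 ug of total RNA as input, and the study's methods name another amount and another amplification kit. The authors deposited spot intensity values from Agilent Feature Extraction 10.10, already background-subtracted, and a processed table of linear intensity values, which equals the scanner signal times 1 constant per array (4.91 and 5.20, medians 189 and 181) within 1% in 100% of spots with a signal above 50. The sources used here do not say how these constants were chosen.

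For each spot, log2 of the signal minus log2 of its array's 75th percentile was taken. The 206 spots flagged as outliers by the scanner software, none of them of a Smad, were removed. Replicate spots were averaged by probe, and the probes that were well above background in both embryos were averaged by gene. Different probes of a gene disagreed with a pooled SD of 0.29 over 3747 genes. RefSeq (GRCm38.p6) named 30235 spots by unversioned accession and left 12785 unnamed. Genes seen on 1 array alone got a lower bound against the lowest signal well above background, or their own if higher. With 2 arrays on 1 slide, no test was run, no slide or scan term could be fitted, and genes were counted by size (1.5-fold). The number of arrays limits the precision, and depth in reads has no meaning here.

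The members, lists, sizes and the rule for named genes were chosen with earlier results of these data known. The rule takes all Smads, Dullard, from each pathway list the 4 members that differed most, and all list members past 1.5-fold. Alternatives were median scaling, no scaling, quantile normalization, normexp (offset 50, on median signals, since the files hold no mean foreground signal), no filter, outlier spots kept, the brightest probe, the mean of linear folds and the processed table. The steps were tested on simulated data. Python 3.11.15, numpy 2.4.6, pandas 2.3.3, matplotlib 3.10.9, R 4.3.3 and limma 3.58.1 were used.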

Additional observations from a re-analysis of the deposited data

How the results depend on the processing

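The count of Smads at least 1.5-fold higher was 2 under 8 of 9 alternatives. It was 1 with normexp, whose offset of 50 pulls dim signals toward each other by construction, with Smad6 at 0.41. At 2-fold the count was 0 as reported, but with median scaling Smad7 passed 2-fold, at 1.01. The median log2 fold change of the Smads was 0.15 without scaling, against 0.26, and the shift of 0.11 is the difference of the 75th percentiles. The pathway lists held 11 genes past 1.5-fold with median scaling and 13 without scaling, 9 of them higher and 4 lower. Under 7 alternatives chosen after seeing the data, they held between 8 (normexp) and 12. Of all measured genes 579 were past 1.5-fold upward and 498 downward, so 53.8% of those past 1.5-fold were higher. The split was 94 higher and 33 lower (74.0% higher) with normexp, 1215 and 1737 (41.2%) without the filter on dim probes, and 388 and 782 (33.2%) without scaling. The gap between BMP-regulated Smads and Smad2 and Smad3 rested in part on the dimmer Smad3 probe, at -0.75. Signal over background limits Smad6, Smad9 and that probe. No paired analysis was possible because each genotype had 1 embryo, and for the same reason no replicate could be left out.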
